A study of Canis lupus familiaris with 12 samples.

Results

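The genes described here are 8 genes that mark fat cells or encode hormones made by them, listed by symbol as ADIPOQ, LEP, RETN, CFD, PPARG, CEBPA, FABP4 and LPL. Of these, 6 were found in the mRNA table, which holds 19856 genes, 15121 of them with a symbol. CEBPA and FABP4 had no row by symbol or by gene number and were not analysed here. RNA came from the right atria of mongrel dogs of either sex, 3 in each group. In the pacing group a pacemaker drove the right atrium at 500 bpm and 5 V for 14 days, and the control group had the same operation with a pacemaker that gave no stimulation. No gene was altered in any of the dogs, their age is not given in the sources used here, and each library came from a separate dog. Values are FPKM, which are fragments scaled to transcript length and to the depth of the library, so levels can be compared between genes.

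Fat tissue lies on the surface of the atria and between their muscle bundles. Its cells store triglyceride in a single large droplet and release hormones, called adipokines, into the blood and the nearby muscle. PPARG is the nuclear receptor that directs the making of fat cells and drives many of their genes, among them ADIPOQ. LPL, an enzyme on the capillary wall, frees fatty acids from circulating lipoproteins and is made by heart muscle as well as by fat cells.

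The control columns of the tables are headed C1, C2 and C4 and the pacing columns P1, P2 and P3, while the sample titled C4 is labelled as paced. C4 was counted as control, after the name of its column, and the results of the members are also given without it. C4 also lacked mRNAs that define atrial muscle. The summed level of 9 atrial muscle markers was 38.2 FPKM in C4 against 2799 to 15793 FPKM elsewhere, and that of 6 ventricular muscle markers was 8364 FPKM in C4 against 300.4 to 970.5 FPKM elsewhere. The depth of the libraries is unknown, but the steps between low FPKM values put it at 1 to 1.15 times that of C1 in the control libraries and at 1.37 to 1.896 times in the pacing libraries, so a low value was measured more finely under pacing. The pacing libraries listed the mitochondrial genes COX3, ATP6 and MT-ATP8 at 0, and these were the 3 genes that passed the adjusted threshold with all libraries. COX3 was 64079, 44959 and 67623 FPKM in C1, C2 and C4. Pacing and a difference in how the libraries were made or processed cannot be told apart here. The zeros are not read as an effect of pacing, though the 3 genes stay in the counts of called genes below.

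ADIPOQ and LEP were high in C1 and C2 and low in the other 4 libraries, C4 included. CFD and PPARG were also highest in C1 and C2 and lowest in C4, at a smaller scale. LPL was abundant everywhere and lower in each pacing library than in any control library, and RETN was low in all of them. With all 6 libraries 0 members passed the adjusted threshold of 0.05 in limma, and without C4 only ADIPOQ did.

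**Figure D1:**
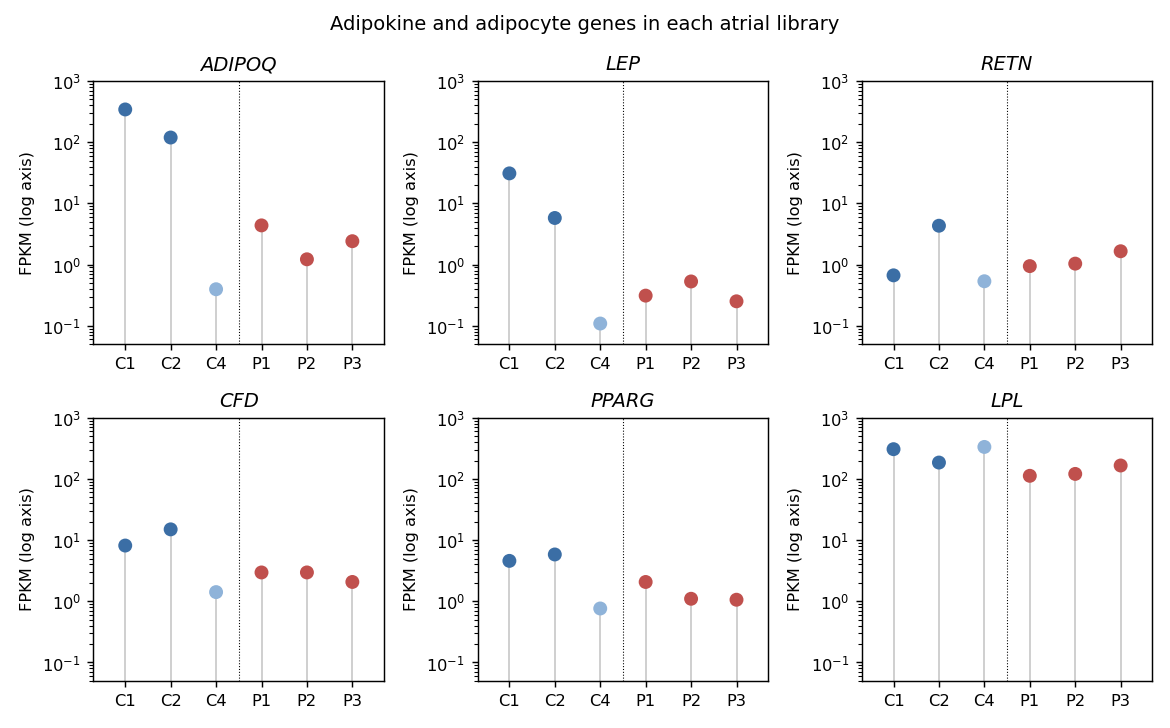
Level of the 6 measured genes in each library. Each panel is a gene, each point is a library and the vertical axis is FPKM on a log scale. Control libraries are blue, with C4 in light blue, and pacing libraries are red. ADIPOQ ran from 119 to 343 FPKM in C1 and C2 and was at most 4.37 FPKM in the other 4 libraries.

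ADIPOQ encodes adiponectin, an adipokine made almost only by fat cells, which raises the use of fatty acids in muscle and liver through the receptors ADIPOR1 and ADIPOR2. The gene (ENSCAFG00000013694) lies on the plus strand at chr34:19398225-19408430 of canFam3. Its level was 343 FPKM in C1, 119 FPKM in C2 and 0.396 FPKM in C4, and 4.37, 1.22 and 2.41 FPKM in P1, P2 and P3. C1 and C2 therefore stood above all pacing libraries, and C4 stood below all of them, so the groups as labelled overlapped. Among all genes of the table ADIPOQ ranked 143 by level in C1 and 454 in C2, but 11735 in C4 and between 8140 and 10976 in the pacing libraries.

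The control mean of ADIPOQ was 154 ± 174 FPKM and that of the paced dogs 2.67 ± 1.59 FPKM (SD, n = 3 libraries each), so the spread of the control group exceeded its mean. The log2 fold change of FPKM plus 1, pacing against control, was -3.49 (standard error 1.85, adjusted p = 0.892 from limma), and -1.91 when C1 was left out. Without C4 it was -5.89 (standard error 0.55, 95% interval -7.25 to -4.52, adjusted p = 0.0410), and the lowest of C1 and C2 was 27.3 times the highest pacing library. This call did not hold when a further library was left out, with adjusted p from 0.0583 to 0.211 over the 5 libraries. Counting C4 among the pacing libraries gave a log2 fold change of -6.21 with an adjusted p of 0.0165 from limma. ADIPOQ was listed with earlier results of these data known, so these calls are a description.

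LEP encodes leptin, the adipokine that reports the size of the fat stores to the brain. The gene (ENSCAFG00000001672) lies on the minus strand at chr14:8114472-8131160. It was 31.0 FPKM in C1, 5.78 FPKM in C2 and 0.109 FPKM in C4, and 0.311, 0.530 and 0.251 FPKM in the pacing libraries. As for ADIPOQ, C1 and C2 were the high libraries and C4 was the lowest of all. The pacing mean of 0.364 ± 0.147 FPKM (SD, n = 3 libraries) was under the filter of 1 FPKM, so LEP entered the test only through the control libraries. Its log2 fold change was -2.19 (standard error 1.08, adjusted p = 0.892 from limma), -1.01 without C1, and -3.44 without C4 (standard error 0.64, unadjusted p = 0.00186, adjusted p = 0.160). When C2 was also left out, the adjusted p was 0.0415, with C1 as the only control library, which is then assumed to vary as the pacing libraries do.

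C1 and C2 differed from each other in the hormones. ADIPOQ was 2.88 times as high in C1 as in C2 and LEP 5.36 times. CFD went the other way, at 0.544 times, and PPARG was 0.786 times as high. PLIN1, the protein that coats the fat droplet, was 1.11 times as high and CIDEC, which fuses droplets, 2.30 times. These are single libraries, and the ratios have no replicate check.

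CFD encodes complement factor D, or adipsin, a protease that fat cells secrete and that starts the alternative complement pathway by cleaving factor B. Monocytes and macrophages also make it. The gene (ENSCAFG00000028817) lies on the minus strand at chr20:57783153-57786954. Its level was 8.15, 14.99 and 1.41 FPKM in C1, C2 and C4, and 2.96, 2.96 and 2.07 FPKM in P1, P2 and P3. Here C2 was the highest library and C4 again the lowest. The log2 fold change was -0.96 (standard error 0.65, adjusted p = 0.892 from limma), -0.37 without C2, and -1.73 without C4 (standard error 0.31, unadjusted p = 0.00142, adjusted p = 0.151). Macrophage and monocyte markers, summed over 10 genes, ranged from 89.4 to 395 FPKM under control and from 35.2 to 436 FPKM under pacing, with 0 of the 10 at 0 in any library. The sum was highest in P1 and C1. CSF1R, CD68 and ITGAM of this list were each highest in C2, as was CFD, with CD68 at 12.25 FPKM in C2 against 12.17 FPKM in P1. CD163, C1QA, C1QB, C1QC and MARCO were highest in P1, and MRC1 and LYVE1 in C1. The part of these cells in the level of CFD was not tested.

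RETN encodes resistin, which fat cells of rodents secrete and which in humans comes mainly from monocytes and macrophages. The gene (ENSCAFG00000018307) lies on the plus strand at chr20:52434447-52435483. It was 0.667, 4.32 and 0.535 FPKM in C1, C2 and C4 and 0.945, 1.04 and 1.65 FPKM in P1, P2 and P3. C2 was the highest library and the groups overlapped. No counting error can be given for such low values, since the depth is unknown. The log2 fold change was -0.12 (95% interval -1.33 to 1.08, adjusted p = 0.978 from limma), -0.44 without C4 (adjusted p = 0.684), and without both C4 and C2 it turned to 0.39. Neutrophil markers, summed over 8 genes, were also highest in C2, at 2424 FPKM, against 262 FPKM in C1, 986 FPKM in C4 and from 59.2 to 1384 FPKM under pacing, and their part in the value of C2 was not tested. ELANE, an enzyme of neutrophil granules, was listed at 0 in every library.

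PPARG (ENSCAFG00000004991, minus strand, chr20:6134563-6208159) was 4.58, 5.83 and 0.763 FPKM in C1, C2 and C4 and 2.07, 1.10 and 1.06 FPKM in the pacing libraries. C1 and C2 stood above the pacing libraries by a narrower margin than for ADIPOQ and LEP. The lower of C1 and C2 was 2.21 times the highest pacing library. The log2 fold change was -0.78 (standard error 0.53, adjusted p = 0.892 from limma), -0.41 without C2, and -1.38 without C4 (standard error 0.29, unadjusted p = 0.00312, adjusted p = 0.185).

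LPL (ENSCAFG00000010161, minus strand, chr25:37079873-37103255) was 306, 185 and 333 FPKM in C1, C2 and C4 and 112, 121 and 166 FPKM in the pacing libraries. It was the only member whose groups did not overlap with all libraries, and the only 1 that was high in C4. Its mean was 275 ± 78.9 FPKM in control dogs and 133 ± 28.7 FPKM in paced dogs (SD, n = 3 libraries each). The log2 fold change was -1.02 (standard error 0.29, 95% interval -1.70 to -0.33, limma, unadjusted p = 0.00975, adjusted p = 0.879). A 2-sided exact permutation test gave p = 0.1, the smallest that 3 libraries against 3 allow. Without C4 the log2 fold change was -0.86 (unadjusted p = 0.0281, adjusted p = 0.282), without both C4 and C1 it was -0.50 (unadjusted p = 0.160), and it was -0.52 if C4 was counted among the pacing libraries (unadjusted p = 0.301).

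Counted over the members, 6 of 6 had a negative log2 fold change with all libraries, as did 53.3% of all 11583 genes tested. LPL alone, 1 of 6, passed an unadjusted p of 0.05, where 3.02% of all genes passed in that direction and 2.52% in the other. It was also the 1 of 6 that did not overlap between the groups, as were 6.14% of all genes with lower and 4.9% with higher pacing values. An adjusted p of 0.05 was passed downward by 0.0259% of all genes and by 0 members. The median log2 fold change was -0.99 over the members and -0.03 over all genes. With array weights, by which limma gives less weight to libraries that vary more, ADIPOQ, LEP, CFD and PPARG also passed the unadjusted p (0.00152, 0.00252, 0.0121 and 0.0117), with log2 fold changes of -5.53, -3.35, -1.33 and -1.20, and the lowest adjusted p of a member was 0.250. In that fit 306 genes of the whole table passed the unadjusted p upward and 1167 downward.

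Without C4 the background itself moved. Of 11699 genes, 63.8% had a negative log2 fold change, 12.7% passed the unadjusted p downward and 2.61% upward, and 0.171% passed the adjusted p downward. Every pacing library lay under both control libraries for 26.7% of genes and over both for 7.84%. Of the members, 6 of 6 had a negative log2 fold change, 5 of 6 passed the unadjusted p and had groups that did not overlap, and 1 of 6 passed the adjusted p. Exact permutation tests of these 5 gave p = 0.2, the smallest that 2 libraries against 3 allow. The median of the members was -1.56 and that of all genes -0.16. The members were chosen with earlier results of these data known, and LEP could only enter the test by being high in the control libraries. These counts therefore describe the members and are no support for a change.

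**Figure D2:**
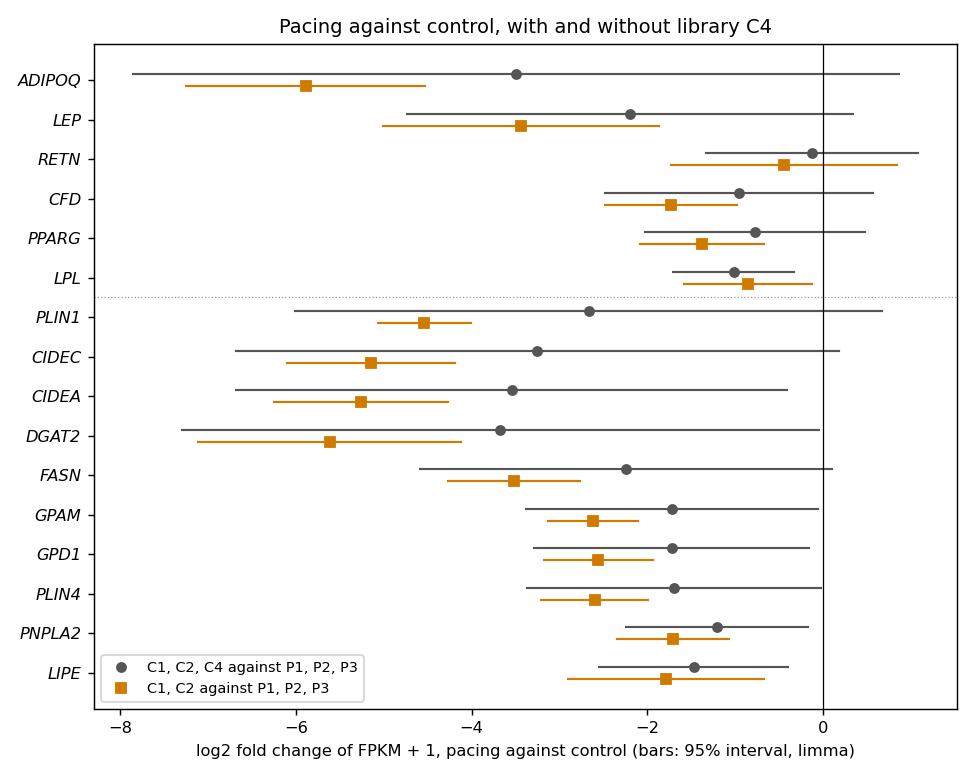
Log2 fold change of FPKM plus 1, pacing against control, for the 6 members (above the dotted line) and 10 other genes of fat cells. Grey circles use C1, C2 and C4 and orange squares only C1 and C2 as control, and bars are 95% intervals from limma. For ADIPOQ the interval ran from -7.85 to 0.87 with C4 and from -7.25 to -4.52 without it, and most of the other fat cell genes shown narrowed in the same way.

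Other genes known from fat cells, which make and break down triglyceride, coat the droplet, take up glucose and fatty acids or carry hormone signals, were, in sum, also highest in C1 and C2. Not every gene followed the sum. Of 26 genes on the list, the members left out, 22 were in the table. Their summed level was 1605 FPKM in C1, 1172 FPKM in C2 and 355 FPKM in C4, and 360, 318 and 315 FPKM in P1, P2 and P3. With all libraries 19 were tested, 17 had a negative log2 fold change, 8 passed the unadjusted p downward and 0 passed the adjusted p. Of all genes, 53.3% were negative and 3.02% passed the unadjusted p downward. Without C4 18 were tested and 7 passed the adjusted p downward, 14 passed the unadjusted p downward and 0 upward. Of all genes without C4, 0.171% passed the adjusted p downward and 12.7% the unadjusted p downward. The median of the list was -1.47 with all libraries and -2.34 without C4. The 7 that passed without C4 were among 20 such genes in the whole table. CIDEC, CIDEA, LGALS12 and KLB passed the filter only through the control libraries, as did PCK1 in the fit with all libraries. These counts and medians are therefore a description.

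PLIN1 was 54.3, 48.9 and 0.0735 FPKM in C1, C2 and C4 and 1.68, 1.17 and 0.985 FPKM in P1, P2 and P3. Without C4 its log2 fold change was -4.54 (standard error 0.22, adjusted p = 0.00229 from limma), and with C4 it was -2.67 (adjusted p = 0.892). CIDEC was 94.2, 40.9 and 0.235 FPKM and then 0.796, 0.481 and 1.15 FPKM. CIDEA, a related droplet protein known from brown fat, was 70.9, 36.2 and 0.468 FPKM and then 0.948, 0.0572 and 0.199 FPKM. Each of the 3 was thus lower in C4 than in P1, and each was higher in C1 and C2 than anywhere else. CIDEC and CIDEA averaged 0.807 and 0.401 FPKM under pacing, below the filter, so like LEP they entered the test only through the control libraries, and their log2 fold changes without C4, -5.14 and -5.26 (limma, adjusted p = 0.0176 for both), are a description. FASN, the synthase of fatty acids, and GPAM and GPD1, enzymes of triglyceride synthesis, had log2 fold changes of -3.52, -2.62 and -2.56 (adjusted p = 0.0301, 0.0200 and 0.0410). PLIN4, another droplet coat protein, was 73.6, 57.0 and 9.20 FPKM and then 8.01, 9.42 and 12.7 FPKM, a log2 fold change of -2.60 (adjusted p = 0.0410). The calls of FASN, GPAM, GPD1 and PLIN4 were each lost whichever further library was left out, with adjusted p from 0.0519 to 0.225 for FASN, 0.0781 to 0.134 for GPAM, 0.0516 to 0.286 for GPD1 and 0.0926 to 0.286 for PLIN4. For PLIN1 the adjusted p was 0.00990 to 0.0416.

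Other genes of this list stood apart in 1 respect or another. DGAT2, which adds the last fatty acid to triglyceride, was 477 and 273 FPKM in C1 and C2 and 3.72 to 15.7 FPKM in the other 4 libraries, but its adjusted p without C4 was 0.0520. LIPE, the hormone-sensitive lipase, was 16.6, 5.91 and 4.77 FPKM in C1, C2 and C4 against 1.63, 1.92 and 3.28 FPKM in P1, P2 and P3, with groups that did not overlap even with C4 (log2 fold change -1.47, limma, unadjusted p = 0.0143, adjusted p = 0.879). PNPLA2, the lipase that takes the first fatty acid off triglyceride in fat and in muscle, was 169, 129 and 52.2 FPKM and then 58.7, 38.2 and 39.6 FPKM. PDE3B, which breaks down cyclic AMP downstream of insulin, had a positive log2 fold change of 0.67 (adjusted p = 0.892), which turned to -0.21 with C4 counted as pacing. Further genes of the list are named after their values were seen. SLC2A4, which takes up glucose, was 24.2, 10.5 and 16.8 FPKM and then 17.5, 23.7 and 19.6 FPKM. CD36, which takes up fatty acids, was 114, 52.3 and 120 FPKM and then 56.2, 90.1 and 64.6 FPKM. ACACB and PCK1 were, like CD36, highest in C4.

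The level of the members was also set against that of PLIN1 and CIDEC, a comparison chosen after the data were seen. The summed FPKM of these 2 genes was 148 in C1, 89.8 in C2 and 0.309 in C4, and 2.47, 1.65 and 2.13 in P1, P2 and P3. Per unit of it, ADIPOQ was 2.31 in C1 and 1.33 in C2. In P1, P2 and P3 it was 1.77, 0.739 and 1.13, and in C4 it was 1.28. The groups overlapped on this scale, and the log2 difference between pacing and C1 and C2 was -0.62. LEP also overlapped, at 0.209 in C1, 0.0643 in C2 and 0.118 to 0.321 in the pacing libraries, with a log2 difference of 0.54. Overlap of so few libraries does not show that the ratios were equal.

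The other 4 members did not keep pace with PLIN1 and CIDEC. CFD was 0.0549 and 0.167 per unit in C1 and C2 and 0.972 to 1.79 in the pacing libraries. PPARG was 0.0308 and 0.0649 in C1 and C2 and 0.498 to 0.837 in the pacing libraries, and LPL was 2.06 in both C1 and C2 and 45.4 to 77.8 in the pacing libraries. RETN, low throughout, had the same direction. For these 4 every pacing library lay above C1 and C2. Since the divisor was chosen after its own difference between these libraries was seen, any gene that differed less has a higher ratio under pacing, and the ratios are a description with no test. The ratios of the 4 libraries other than C1 and C2 rest on low levels of PLIN1 and CIDEC, of unknown counting error.

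**Figure D3:**
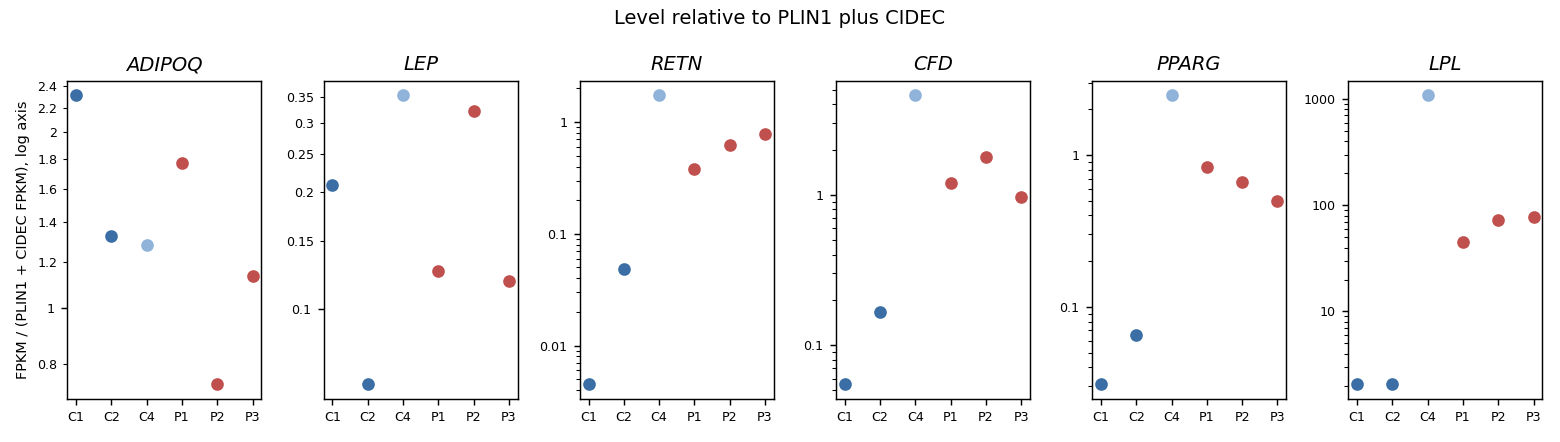
FPKM of the 6 measured members divided by the summed FPKM of PLIN1 and CIDEC in the same library, on log axes that differ between panels. Points are libraries (control blue, C4 light blue, pacing red). ADIPOQ and LEP overlapped between C1 and C2 and the pacing libraries, while RETN, CFD, PPARG and LPL were above C1 and C2 in every pacing library.

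In a piece of atrium, fewer fat cells and less of these mRNAs in each fat cell cannot be told apart from total RNA. The values that bear on it are the ratios above and the markers of other cells. Endothelial markers, summed over 10 genes, ranged from 220 to 437 FPKM under control and from 264 to 481 FPKM under pacing. Fibroblast and preadipocyte markers, over 11 genes, were 366 to 904 and 688 to 930 FPKM, and mesothelial and epicardial markers, over 10 genes, were 9.93 to 35.3 and 21.0 to 58.4 FPKM. Of the mesothelial genes, KRT19 and BNC1 were listed at 0 in the control libraries. Under pacing KRT19 was at most 0.375 FPKM and at 0 in P3, and BNC1 was 0.279 FPKM in P1 and at 0 in P2 and P3. All 3 ranges overlapped between the groups, and C4 had the lowest sum for each. Markers of blood cells were at most 0.825 FPKM in sum. Markers of muscle of any chamber, over 9 genes, ranged from 7470 to 12966 FPKM under control and from 8482 to 12918 FPKM under pacing, with C1 and C2 at 10070 and 7470 FPKM. The part of these cells in the result was not tested.

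**Figure D4:**
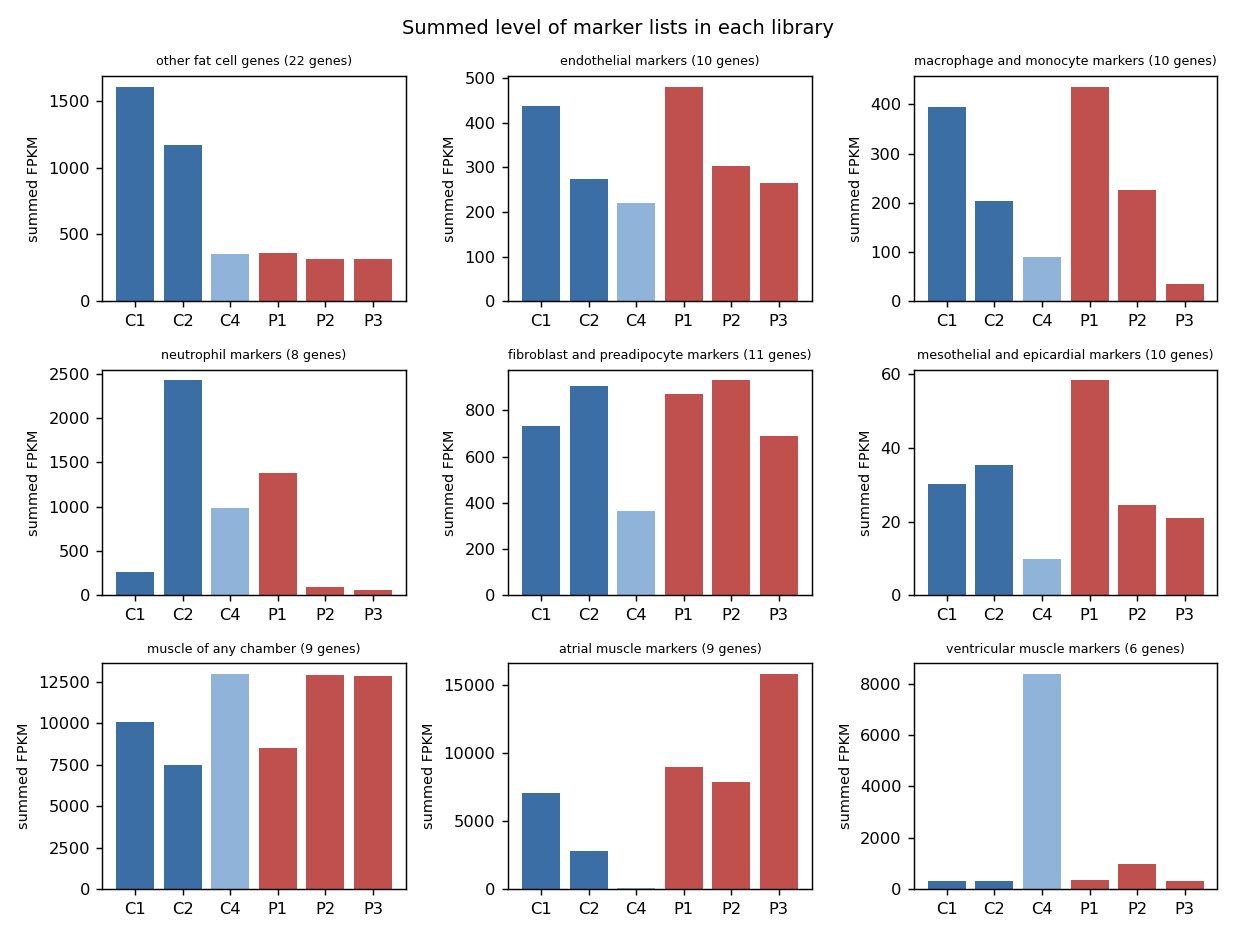
Summed FPKM of 9 marker lists in each library, with an axis from 0 for each list. Control libraries are blue, C4 light blue and pacing libraries red. Other fat cell genes were 1605 and 1172 FPKM in C1 and C2 and 315 to 360 FPKM in the other 4 libraries, atrial muscle markers were lowest in C4, at 38.2 FPKM, and ventricular muscle markers highest there, at 8364 FPKM.

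The receptors of these hormones were compared next. ADIPOR1 was 90.1, 82.2 and 79.0 FPKM in C1, C2 and C4 against 83.7, 99.6 and 97.2 FPKM in P1, P2 and P3 (log2 fold change 0.16, standard error 0.18, adjusted p = 0.905 from limma). ADIPOR2 was 39.7, 39.9 and 21.9 FPKM and then 19.0, 17.1 and 19.5 FPKM, so that every pacing library lay below every control library (log2 fold change -0.79, unadjusted p = 0.0231, adjusted p = 0.879), and without C4 the log2 fold change was -1.07 (adjusted p = 0.132). LEPR, the leptin receptor, was at most 0.219 FPKM in any library, and was not tested. STAT3, the transcription factor that leptin and other cytokines activate, was 121, 156 and 126 FPKM in C1, C2 and C4 against 89.3, 71.7 and 60.6 FPKM in P1, P2 and P3 (log2 fold change -0.86, unadjusted p = 0.00600, adjusted p = 0.879). APPL1, the adaptor that binds the adiponectin receptors, had a log2 fold change of 0.41 (adjusted p = 0.892). Of the 14 genes of this list that were tested, 6 were negative and 8 positive, where 53.3% of all genes were negative. In the list 2 passed the unadjusted p downward, against 3.02% of all genes, 0 passed it upward and 0 passed the adjusted p. Its median was 0.10 against -0.03 for all genes.

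Around PPARG, 25 partners and regulators of fat cell formation were tested, of which 16 were negative and 9 positive and 0 passed the unadjusted p with all libraries. Without C4 22 were negative and 7 passed the unadjusted p downward, where 63.8% and 12.7% of all genes did. The median of the list was then -0.43 against -0.16 for all genes. RXRA, which binds DNA together with PPARG, was 11.4, 12.7 and 5.18 FPKM in C1, C2 and C4 against 7.59, 5.80 and 5.53 FPKM in P1, P2 and P3 (log2 fold change -0.49, adjusted p = 0.892 from limma). CEBPG and KLF4 had log2 fold changes of -0.55 and -0.58 (adjusted p = 0.892 for both). Like PPARG, RXRA was lowest in C4.

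Around LPL, 10 genes of its secretion, anchoring and inhibition were tested, of which 5 were negative and 5 positive and 0 passed the unadjusted p. Without C4 8 were negative and 2 passed it downward, where 63.8% and 12.7% of all genes did. LMF1, which folds the enzyme in the endoplasmic reticulum, was 3.99, 5.45 and 2.10 FPKM in C1, C2 and C4 against 2.72, 2.58 and 3.64 FPKM in P1, P2 and P3. ANGPTL4, its secreted inhibitor and a target of PPAR receptors, was 34.4, 14.8 and 6.71 FPKM and then 10.7, 3.92 and 8.24 FPKM (log2 fold change -1.01, adjusted p = 0.892 from limma). GPIHBP1, which holds the enzyme on the capillary wall, was 1.15, 0.335 and 0.207 FPKM and then 0.233, 0.232 and 0.336 FPKM, below the filter. None of these 3 separated the groups as LPL did. FABP3, the fatty acid binding protein of heart muscle, was 581, 818 and 1155 FPKM in C1, C2 and C4 against 781, 1752 and 1732 FPKM in P1, P2 and P3 (log2 fold change 0.70, adjusted p = 0.892).

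Of other secreted products of fat, 10 were tested, 7 were negative and 2 passed the unadjusted p downward, where 53.3% and 3.02% of all genes did. NNAT, LCN2 and TNF, all negative, passed the filter only through the control libraries. SFRP5, which was positive, passed it only through the pacing libraries, so these counts are a description. NAMPT, which makes a precursor of NAD and is secreted as visfatin, was 950.2, 839 and 569 FPKM in C1, C2 and C4 against 519.95, 236 and 194 FPKM in P1, P2 and P3 (limma, log2 fold change -1.41, unadjusted p = 0.0103, adjusted p = 0.879). It is also made by many other cells, and C4 lay above all pacing libraries, unlike ADIPOQ and LEP. Of the complement genes beside CFD, 5 were tested, 3 were negative and 0 passed the unadjusted p. C3 had a log2 fold change of -1.21, CFP of -1.45 and CFI of 0.60 (adjusted p = 0.892 for each).

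Likeness to ADIPOQ was measured as Pearson's r of log2 FPKM plus 1 over the 6 libraries and is a description, since all genes share the same 6 libraries and 2 of these set most of the variation. LEP had r of 0.958, PPARG 0.952 and CFD 0.905, while RETN had 0.361 and LPL 0.322. Of 19 other fat cell genes tested, 11 had r of 0.9 or more, as had 6.23% of all other genes tested (721 genes). The genes most like it were TGS1 (0.999), ENSCAFG00000001422 (0.999), AMMECR1L (0.998), UCKL1 (0.997) and ENSCAFG00000029777 (0.997). TGS1 ran from 11.01 FPKM in C4 to 21.7 FPKM in C1, a far smaller span than that of ADIPOQ.

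In the other readouts of the same RNA, 5 of 15990 circRNAs were annotated to members, 3 to LPL and 2 to PPARG, all exonic and on the minus strand. Each had reads in 1 library only. For PPARG, the junction at chr20:6173779-6185376 had 2 reads in C1 and that at chr20:6152030-6161994 had 4 in P2. For LPL, chr25:37082144-37095797 had 2 reads in P1, chr25:37084456-37095797 had 2 in C2 and chr25:37088428-37095797 had 3 in P2, and all 3 end at the same position. At these counts no comparison of the groups was possible. Of the lncRNA transcripts, 0 were associated with a member, and of 4 that lie within 50 kb of a member, the 2 near LEP were listed at 0 throughout and the 2 near ADIPOQ were at most 0.988 FPKM.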

How the data were processed

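Right atrial RNA of 3 control and 3 paced dogs was depleted of ribosomal RNA and sequenced as stranded libraries. The mRNA and lncRNA tables hold FPKM as deposited by the authors. Their processing notes list cutadapt 1.9.3, HISAT2, Cufflinks and Cuffdiff with the build canFam3, and give no options. The depth behind an FPKM is unknown, and relative depths were taken from the commonest ratio between low values of each library and of C1. The circRNA table holds counts of junction reads, which the authors obtained with Bowtie2 and find_circ. Of 48 per-sample columns, 30 were not used, among them those headed Counts in the mRNA table. No column of group comparisons was used.

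Columns were grouped by name. Genes averaging at least 1 FPKM were tested on log2 of FPKM plus 1 with limma 3.58.1 (R 4.3.3, with trend, 2-sided, Benjamini-Hochberg over all genes tested), with and without C4. This scale understates the change of low genes. Single members were also tested by exact permutation. The p-values of limma rest on the spread between these libraries, moderated over all genes. With all libraries that spread includes the difference of C4 from C1 and C2. Intervals are those of limma at 95%. The code was tested on simulated data.

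The members and the gene lists were chosen with earlier results of these data known. The genes named are all members, genes of each list past the adjusted threshold or else up to 3 in each direction by p, set receptors, droplet and lipase genes, and the 5 most like ADIPOQ. Alternatives were the pseudocount (0.1), no filter, upper quartile and TMM-type scaling, limma without trend, array weights, C4 as pacing and each library left out. The ratio to PLIN1 and CIDEC and the further library left out without C4 were added after the data were seen. The miRNA tables were not used here. No sequences are shown. Some genes that the rule would name are not reported here.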

Additional observations from a re-analysis of the deposited data

How the results depend on the processing

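Over 13 alternatives with all libraries and 11 without C4, the members gave 143 values, of which 131 kept their direction and their side of the adjusted threshold, 8 lost the threshold, 3 gained it and 1 turned. With all libraries, 3 genes passed the adjusted threshold in the fit reported and in 6 of these alternatives, 26 with C4 counted as pacing, and 3 to 20 with each library left out, the highest count without C4. Members past it numbered 1 with C4 counted as pacing and 0 to 1 with each library left out. Without C4, 20 genes passed, but 10 with a pseudocount of 0.1, 13 without the filter, 13 with upper quartile scaling and 6 to 29 with a further library left out. There, members past it numbered 0 with a pseudocount of 0.1, 0 without the filter, 0 with limma without trend and 0 to 1 with a further library left out. ADIPOQ had adjusted p from 0.0391 to 0.0808 over the 6 alternatives without C4 that kept the other 5 libraries. The LPL log2 fold change without C4 was -0.60 with upper quartile scaling and -0.68 with TMM-type scaling (unadjusted p = 0.103 and 0.0539). Directions turned for PDE3B with C4 counted as pacing (-0.21) and for LMF1, from -0.52 to 0.0092 with each library left out, the latter without C2. Among the fits without C4, leaving out C2 as well turned RETN (-1.28 to 0.39 over the libraries left out), PDE3B (-0.15 to 0.55), CFI (-0.17 to 1.02) and APPL1 (-0.0019 to 0.64). RETN was under the filter without C2 and has no value there. The cause of these changes was not tested.

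Without C4 the median log2 fold change of all genes was -0.16 as deposited, -0.0041 with TMM-type scaling and 0.07 with upper quartile scaling, and the genes past an unadjusted p of 0.05 split into 305 higher and 1483 lower as deposited, 712 and 838 with TMM-type scaling and 877 and 663 with upper quartile scaling. With all libraries the split was 292 higher and 350 lower, 403 and 442 with TMM-type scaling, 576 and 285 with upper quartile scaling and 306 and 1167 with array weights. No paired analysis was possible because the labels number the control samples 1 to 3 and the pacing samples 4 to 6, so that the groups share no replicate number. Low levels limit RETN and LEPR in all libraries, LEP in C4 and the pacing libraries, and ADIPOQ in C4.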

Other observations

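Of the 20 genes that passed the adjusted threshold without C4, all downward, 1 was a member, 7 were on the list of other fat cell genes and 12 were on neither. Of these 12, 4 were listed at 0 in every pacing library (COX3, ATP6, MT-ATP8 and ENSCAFG00000014025). Others of the 12 are named here after their values were seen. PNPLA3, a lipase of fat and liver, was 14.2 and 18.0 FPKM in C1 and C2, listed at 0 in C4, and 0.282, 0.0511 and 0.0507 FPKM in P1, P2 and P3 (limma, log2 fold change -3.92, adjusted p = 0.00892). Its pacing mean of 0.128 FPKM was under the filter, so it entered the test only through C1 and C2 and its value is a description. CHI3L1, a secreted glycoprotein of macrophages and matrix cells, was 97.5 and 89.4 FPKM in C1 and C2, 3.09 FPKM in C4 and between 1.32 and 2.62 FPKM under pacing (log2 fold change -4.96, adjusted p = 0.00267). MGST1, a glutathione transferase, and PC, the pyruvate carboxylase that supplies oxaloacetate for lipid synthesis, had log2 fold changes of -4.03 and -2.21 (adjusted p = 0.0410 for both). MARC1 had -2.52 (adjusted p = 0.0176). DUSP4, a phosphatase of MAP kinases, had -3.03 (adjusted p = 0.0410). In C4 each of these genes was between 0 and 6.63 FPKM. PTX3, a pentraxin of innate immunity, had another order, at 291 and 277 FPKM in C1 and C2, 146 FPKM in C4 and between 47.7 and 74.1 FPKM under pacing (log2 fold change -2.23, adjusted p = 0.0462). Of PNPLA3, CHI3L1, MGST1, PC, MARC1, DUSP4 and PTX3, CHI3L1 alone stayed past the adjusted threshold whichever further library was left out (limma, adjusted p from 0.00914 to 0.0447).

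Among genes of brown and beige fat, UCP1, the protein that uncouples respiration to make heat, was 0.767, 3.94 and 0.0956 FPKM in C1, C2 and C4 and 1.31, 0.389 and 0.329 FPKM in the pacing libraries, with groups that overlapped. Of 6 genes of that list tested with all libraries, 3 were negative and 3 positive, and CIDEA was the only 1 past an unadjusted p of 0.05. The 3 negative genes, UCP1, CIDEA and ELOVL6, passed the filter only through the control libraries, so these counts are a description.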
